A study of Homo sapiens with 14 samples.

Results

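The genes described here are 10 genes of TGF-beta and BMP signalling, namely PMEPA1, TGFBI, SMAD7, SMAD3, TGFB1, TGFB2, BMP4, ID1, ID2 and ID3, of 28307 gene symbols with a value in the gene files. They were chosen by name, with the expression of these libraries already known, so their values are given as a description and carry no test. Expression is in FPKM, fragments scaled by transcript length and library size, which corrects for gene length and library size. PolyA-selected, stranded RNA-seq was made from A375, an established human melanoma cell line, in 14 libraries of 5 groups.

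The paper describes transfection of the cells, with antibiotic selection stated for the bulk populations and for the trunc/+ workflow. The bulk control populations (n = 3) received an empty vector, described in the study's methods as Cas9 without a guide RNA, and were ZC3H18 wild type. The bulk CRISPR populations (n = 3) were edited in ZC3H18, called Z18 by the study, a gene for a nuclear zinc-finger protein that binds the RNA surveillance machinery. The other 8 libraries were single-cell clones from limiting dilution, with 1 library per clone: 2 were ZC3H18 WT, 3 were heterozygous for loss of function (-/+) and 3 were heterozygous for a truncating mutation (trunc/+). Per the paper's results, 1 trunc/+ clone carried the intended homology-directed edit and the remaining clones carried other truncating patient mutations. In the paper, WT clones came from Cas9 without a guide RNA, and -/+ and trunc/+ clones from different guide RNAs. The trunc/+ cells also received a repair template. A difference between clone groups therefore includes differences between single founder cells, and guide and genotype cannot be told apart. Nothing in the labels ties the replicates to separate thaws or donors, so the spread between libraries may be technical in part.

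TGF-beta ligands bind TGFBR2 and TGFBR1, which phosphorylate SMAD2 and SMAD3, and these enter the nucleus with SMAD4. BMP ligands bind a related set of receptors that phosphorylate SMAD1, SMAD5 and SMAD9. The ID genes are textbook BMP targets, and SMAD7, PMEPA1 and TGFBI are textbook TGF-beta targets, of which SMAD7 and PMEPA1 feed back to inhibit the pathway. A375 cells were checked against fixed markers: SOX10, a neural crest factor kept by melanoma, was at 10.8 to 212 FPKM, while the pigment genes MLANA and TYR were listed at 0 in all 14 libraries.

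The promoters of the 6 genes whose bulk CRISPR and bulk control libraries did not overlap are shown, since these genes carried the contrast described next. The letters are from RefSeq (GRCh38.p14), 5′ to 3′ on the gene's strand, and stop at the start site or at the first annotated exon. Capitals mark the SMAD-binding letters CAGAC (or GTCTG on the other strand) and the GC-rich SMAD1 and SMAD5 letters GGCGCC. PMEPA1 is shown at chr20:57711537-57711722 on the minus strand, TGFBI at chr5:136028738-136028987 on the plus strand, SMAD7 at chr18:48950966-48951215 on the minus strand, BMP4 at chr14:53955051-53955300 on the minus strand, ID1 at chr20:31605039-31605282 on the plus strand and ID3 at chr1:23559502-23559751 on the minus strand.
PMEPA1: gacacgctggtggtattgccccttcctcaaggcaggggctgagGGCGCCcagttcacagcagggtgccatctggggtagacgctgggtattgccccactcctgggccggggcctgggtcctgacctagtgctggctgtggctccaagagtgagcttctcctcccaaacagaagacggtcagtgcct
TGFBI: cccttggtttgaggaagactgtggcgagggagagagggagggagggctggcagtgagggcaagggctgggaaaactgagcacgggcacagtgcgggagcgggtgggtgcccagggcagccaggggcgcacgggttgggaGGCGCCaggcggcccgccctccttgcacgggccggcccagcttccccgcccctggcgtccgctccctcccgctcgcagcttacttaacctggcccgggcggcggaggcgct
SMAD7: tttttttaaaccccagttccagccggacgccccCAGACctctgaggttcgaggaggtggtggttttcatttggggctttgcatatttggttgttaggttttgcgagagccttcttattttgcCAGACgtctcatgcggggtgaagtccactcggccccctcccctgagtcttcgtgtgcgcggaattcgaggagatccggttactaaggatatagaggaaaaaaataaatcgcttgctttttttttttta
BMP4: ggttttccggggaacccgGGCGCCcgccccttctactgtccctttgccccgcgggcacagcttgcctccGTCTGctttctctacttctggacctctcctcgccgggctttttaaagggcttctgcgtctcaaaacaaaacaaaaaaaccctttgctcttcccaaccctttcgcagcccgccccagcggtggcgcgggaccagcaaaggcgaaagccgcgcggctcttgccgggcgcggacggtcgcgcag
ID1: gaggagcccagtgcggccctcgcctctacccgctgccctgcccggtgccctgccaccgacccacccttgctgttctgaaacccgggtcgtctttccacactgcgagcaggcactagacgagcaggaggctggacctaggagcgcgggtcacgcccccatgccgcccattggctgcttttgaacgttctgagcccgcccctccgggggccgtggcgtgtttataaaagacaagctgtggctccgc
ID3: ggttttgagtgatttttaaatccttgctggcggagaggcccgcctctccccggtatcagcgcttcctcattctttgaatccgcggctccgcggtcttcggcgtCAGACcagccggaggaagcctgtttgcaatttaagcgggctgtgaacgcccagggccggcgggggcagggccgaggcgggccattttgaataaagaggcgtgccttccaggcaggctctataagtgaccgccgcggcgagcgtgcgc

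All 10 members matched at least 1 RefSeq window of 250 bases before to 50 after a start site, and the window nearest the start in the files was used. For PMEPA1, SMAD7, TGFB2 and BMP4 the start sites of RefSeq and the files differed, by 64, 254, 52 and 1841 bases. The window of BMP4 thus lies inside the gene as the files give it. CAGAC was present in 5 of 10 members' windows (SMAD7, SMAD3, TGFB2, BMP4 and ID3), against 45.3% of 35116 promoter windows of all genes. GGCGCC was present in 4 of 10 (PMEPA1, TGFBI, SMAD3 and BMP4), against 19.2% of windows. The palindrome GTCTAGAC and the AP-1 letters TGANTCA were in 0 of 10, and in 0.202% and 7.71% of all windows. Both strands were searched, and none of the 4 motifs contains another. ID1, ID2 and TGFB1 held none of the motifs within these windows. A match is a run of letters and was not tested as a binding site. Exons of other annotated genes overlap 3 of the 6 stretches shown, NKILA on the opposite strand for PMEPA1 and a gene without a symbol each for BMP4 and ID1.

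The targeted gene was examined first. ZC3H18 was at 38.1, 13.9 and 48.7 FPKM in the bulk controls and at 10.4, 11.9 and 12.8 in bulk CRISPR. The groups did not overlap in FPKM, although control 2 lay just above the edited libraries. In TPM, which scales each library to the same total, they overlapped, with control 2 at 21.6 and bulk CRISPR at 20.4, 24.9 and 26.9. ZC3H18 was at 23.5 and 22.0 FPKM in the WT clones, at 16.2, 17.1 and 16.1 in the -/+ clones and at 14.3, 13.98 and 8.70 in the trunc/+ clones. The clone groups did not overlap. The libraries held 15615675 to 33018360 aligned fragments. The bulk controls held 26668594, 18531793 and 15615675, and bulk CRISPR held 28098217, 31208325 and 32035781. Every bulk CRISPR library was thus deeper than every bulk control, and the part of depth in their differences was not tested. The bulk controls differed more among themselves than any other group, with a median absolute log2 difference between library pairs of 0.49 to 0.65 over 9661 genes, against 0.14 to 0.20 in bulk CRISPR and 0.21 to 0.30 among clones of 1 genotype.

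In the bulk populations, the TGF-beta targets PMEPA1, TGFBI and SMAD7 and the ligand BMP4 were higher in every CRISPR library than in every control, while the BMP targets ID1 and ID3 were lower in every CRISPR library. SMAD3, TGFB1, TGFB2 and ID2 overlapped between the groups. Thus 4 members were higher and 2 lower without overlap, where 21.8% of all 12114 genes tested were higher and 10.4% lower in the same way. The limma fit across all genes put 2 members past the threshold of an adjusted p of 0.05, both higher. Of all genes tested, 0.19% were called higher and 0.157% lower (23 and 19 genes, or 25 and 48 with quantile scaling). Since the members were selected on these values, such calls are no test of them, and nothing is read from those counts. The median log2 fold change of the 10 members was 0.27, and that of all genes tested was 0.18, which quantile scaling moved to 0.03. With quantile scaling the members that did not overlap kept their direction, at 2.23 for PMEPA1, 1.85 for TGFBI, 0.76 for SMAD7, 1.82 for BMP4, -1.27 for ID1 and -1.21 for ID3.

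**Figure D1:**
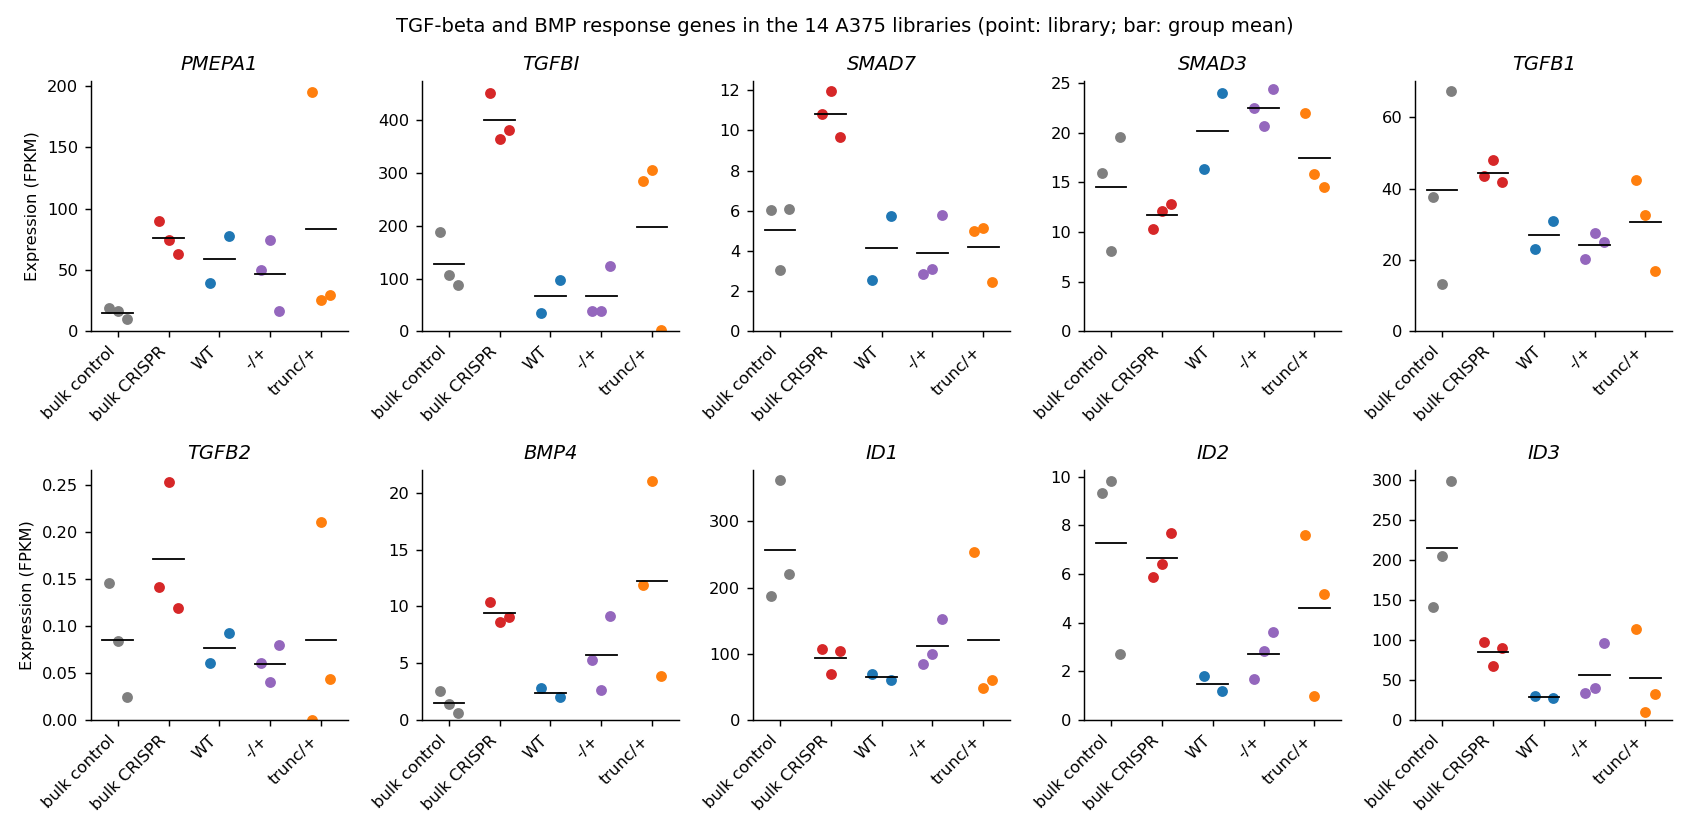
Expression in FPKM (y axis, linear from 0) of each of the 10 genes in the 14 libraries, by group (x axis); points are libraries and bars are group means. The 3 bulk CRISPR libraries lie above the 3 bulk controls for PMEPA1, TGFBI, SMAD7 and BMP4 and below them for ID1 and ID3, while the clones scatter within each genotype.

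PMEPA1, a membrane protein that sequesters SMAD2 and SMAD3, was at 19.1, 16.4 and 10.3 FPKM in the bulk controls and at 89.9, 74.4 and 62.7 in bulk CRISPR. The means were 15.3 ± 4.52 and 75.6 ± 13.6 (SD, n = 3 each), a 4.96-fold higher level. Its log2 fold change of 2.26 (SE 0.27) ranked 11 from the highest of 12114 genes. Fold changes are differences of mean log2(FPKM + 1), which understate the change of low genes.

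TGFBI, a secreted matrix protein named for its induction by TGF-beta, was at 189, 106 and 88.1 FPKM in the controls and at 452, 365 and 383 in bulk CRISPR. The means of 128 ± 53.9 and 400.0 ± 46.0 differed 3.13-fold, and the log2 fold change was 1.71 (SE 0.31). It was the most abundant member in bulk CRISPR. The gap between the highest control and the lowest CRISPR library exceeded the SD of either group.

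SMAD7, the inhibitory SMAD that blocks the receptors, was at 6.05, 3.07 and 6.07 FPKM in the controls and at 10.8, 11.98 and 9.65 in bulk CRISPR. The means of 5.06 ± 1.73 and 10.8 ± 1.16 gave a log2 fold change of 1.00 (SE 0.28). No library outside bulk CRISPR exceeded 6.07 FPKM of SMAD7.

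The members SMAD3, TGFB1 and TGFB2 did not separate the groups. SMAD3, the receptor-activated SMAD of the TGF-beta branch, was at 16.0, 8.11 and 19.6 FPKM in the controls and 10.3, 12.2 and 12.8 in bulk CRISPR, with a log2 fold change of -0.21 (SE 0.32). TGFB1, a TGF-beta ligand, was at 37.8, 13.3 and 67.4 FPKM in the controls, a 5.06-fold range, and at 43.5, 47.9 and 41.7 in bulk CRISPR. Its log2 fold change was 0.43 (SE 0.50), and all 3 edited libraries fell inside the range of the controls. TGFB2, another ligand, stayed at or below 0.253 FPKM in all 14 libraries, was not among the genes tested, and was listed at 0 in trunc/+ 1.

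BMP4, a BMP ligand, was at 2.54, 1.43 and 0.642 FPKM in the controls and at 10.4, 8.62 and 9.09 in bulk CRISPR. The means of 1.54 ± 0.953 and 9.38 ± 0.937 differed 6.10-fold, the largest ratio among the members, with a log2 fold change of 2.10 (SE 0.31). Of the BMP targets among the members, ID1 and ID3 were lower in bulk CRISPR and ID2 overlapped. ID1 encodes a helix-loop-helix protein that binds and inactivates E proteins, and was at 188, 362 and 220.4 FPKM in the controls and 107, 70.3 and 104 in bulk CRISPR. Its mean was 2.74-fold lower, at 93.9 ± 20.5 against 257 ± 92.6, and the log2 fold change was -1.41 (SE 0.30).

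ID3, of the same family, was at 142, 206 and 299 FPKM in the controls and 97.1, 68.0 and 90.7 in bulk CRISPR. The mean was 2.53-fold lower, with a log2 fold change of -1.28 (SE 0.30). ID2, the third ID gene among the 10 members, was far less abundant and overlapped between the groups, at 9.31, 9.84 and 2.70 in the controls and 5.88, 6.41 and 7.69 in bulk CRISPR. Its log2 fold change was 0.03 (SE 0.41), and -0.20 with quantile scaling.

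**Figure D2:**
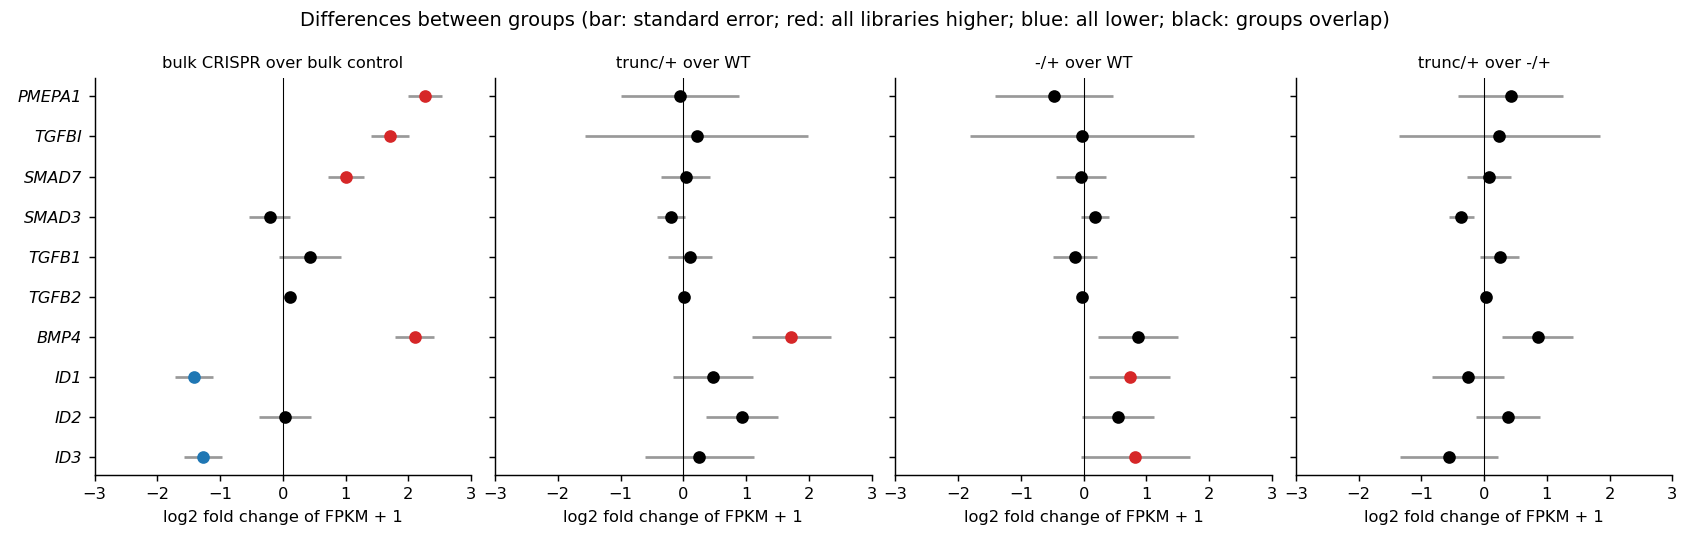
Log2 fold change of FPKM + 1 (x axis) of each gene (y axis) in the 4 comparisons, with bars for the standard error of the fit across all genes; TGFB2 was not in the fit and has no bar. Red and blue points are genes whose groups did not overlap, and they number 4 and 2 in the bulk comparison, 1 and 0 in trunc/+ over WT, 2 and 0 in -/+ over WT and 0 and 0 in trunc/+ over -/+.

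Leaving out any 1 of the 6 bulk libraries kept the direction of PMEPA1 (log2 fold changes of 2.02 to 2.44), TGFBI (1.48 to 2.03), SMAD7 (0.74 to 1.14), BMP4 (1.82 to 2.37), ID1 (-1.60 to -1.13) and ID3 (-1.55 to -1.01). For TGFB1 it ran from -0.18 without control 2 to 0.94 without control 3, and for SMAD3 from -0.56 without control 2 to 0.03 without control 3. Some marker sums differed in the same contrast. Those of epithelial, fibroblast and melanoma and melanocyte markers did not overlap between the bulk groups, and those of haematopoietic and endothelial markers did. The summed FPKM of 7 epithelial markers was 698 to 1091 in the controls and 411 to 534 in bulk CRISPR, carried by KRT18 and KRT8, with EPCAM at or under 0.353 and CDH1 at or under 0.062 in all libraries. The summed FPKM of 7 fibroblast markers was 1.64 to 3.40 in the controls and 7.52 to 8.85 in bulk CRISPR, carried by LUM and FAP, with COL1A2 and COL3A1 at or under 0.060. That of 8 melanoma and melanocyte markers was 13.99 to 29.8 and 32.9 to 39.4. That of 6 haematopoietic markers was 17.5 to 47.2 and 46.8 to 53.2, nearly all of it CD68, with PTPRC at or under 0.030. That of 5 endothelial markers was 0.102 to 0.339 and 0.335 to 0.668. The part of these differences in the members' levels was not tested. In RNA from whole populations, fewer cells expressing a gene and less RNA per cell cannot be told apart.

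In the clones, most members varied widely between clones of 1 genotype, and 1 clone often set the mean of its group. The 8 clones ranged from 2.77 to 305 FPKM in TGFBI, from 16.5 to 195 in PMEPA1, from 10.4 to 115 in ID3 and from 2.00 to 21.0 in BMP4. The SD within genotypes, on the log2 scale, was 2.42 for TGFBI, which ranked 21 of 12904 genes tested, 1.26 for PMEPA1 (rank 226) and 1.17 for ID3 (rank 284), where the median gene had 0.25. SMAD3 had an SD of 0.26, near that median. The melanoma and melanocyte markers also varied within genotypes, with summed levels of 124 to 252 FPKM in WT, 65.0 to 310.3 in -/+ and 85.1 to 295 in trunc/+, and their part in the members' spread was not tested. In the bulk libraries the SD of PMEPA1 was 0.36 and that of TGFBI 0.42, where the median gene had 0.34.

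PMEPA1 was at 39.4 and 78.1 FPKM in the WT clones, at 50.0, 74.3 and 16.5 in the -/+ clones and at 195, 25.7 and 29.9 in the trunc/+ clones. The trunc/+ mean of 83.4 ± 96.3 rested on trunc/+ 1, and the other trunc/+ clones lay below both WT clones. The log2 fold change of trunc/+ over WT was -0.05 (SE 0.93), and that of -/+ over WT was -0.47 (SE 0.93). Without trunc/+ 1 the former was -0.98.

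TGFBI was at 35.0 and 98.3 FPKM in the WT clones, at 38.7, 39.3 and 124 in the -/+ clones and at 286, 305 and 2.77 in the trunc/+ clones. A pair of trunc/+ clones thus exceeded every other clone and trunc/+ 3 was below every other library. The log2 fold change of trunc/+ over WT was 0.21 (SE 1.78), and without trunc/+ 3 it was 2.31. SMAD7 was at 2.56 and 5.73 in the WT clones, at 2.88, 3.08 and 5.79 in the -/+ clones and at 4.98, 5.13 and 2.46 in the trunc/+ clones, and trunc/+ 3 was again the lowest.

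BMP4 was the 1 member higher in all trunc/+ clones than in both WT clones, at 11.9, 21.0 and 3.91 FPKM against 2.81 and 2.00. The means of 12.3 ± 8.55 (n = 3) and 2.41 ± 0.567 (n = 2) differed 5.10-fold, with a log2 fold change of 1.72 (SE 0.63). In -/+ it was at 5.30, 2.67 and 9.14, which overlapped WT. Of all 12904 genes tested, 10.6% were higher and 15.4% lower in trunc/+ than in WT without overlap, and 0.00775% were called by limma. No member was among the called.

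ID1 was at 69.4 and 61.2 FPKM in the WT clones, at 84.4, 99.7 and 153 in the -/+ clones and at 254, 48.0 and 60.9 in the trunc/+ clones. ID3 was at 30.2 and 27.1 in the WT clones, at 34.0, 40.7 and 96.5 in the -/+ clones and at 115, 10.4 and 32.6 in the trunc/+ clones. Both were higher in all -/+ clones than in both WT clones, with log2 fold changes of 0.73 (SE 0.64) and 0.82 (SE 0.87). Without replicate 3 of -/+ these were 0.49 and 0.37. Of all genes tested, 6.16% were higher and 8.44% lower in -/+ than in WT without overlap, and 0.00775% were called by limma, none of them a member. In trunc/+ the ID genes split, with trunc/+ 1 above and trunc/+ 2 below the WT clones for both ID1 and ID3.

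ID2 was at 1.81 and 1.18 FPKM in the WT clones, at 1.68, 2.84 and 3.63 in the -/+ clones and at 7.60, 0.982 and 5.18 in the trunc/+ clones, and overlapped throughout. SMAD3 was at 16.3 and 23.9 in the WT clones, at 22.5, 20.7 and 24.4 in the -/+ clones and at 22.0, 15.9 and 14.5 in the trunc/+ clones, the narrowest spread of the 9 members tested. TGFB1 was at 23.1 and 31.0 in the WT clones, at 20.4, 27.5 and 25.1 in the -/+ clones and at 42.5, 32.6 and 17.1 in the trunc/+ clones. Between trunc/+ and -/+, 0 of 10 members were without overlap, where 4.79% of genes tested were higher and 6.45% lower in that way. In that comparison limma called 0 (0%) of 12904 genes, and 402 genes lay higher and 408 lower with p under 0.05 before adjustment. These clone comparisons share their WT or -/+ libraries and are not independent of each other.

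**Figure D3:**
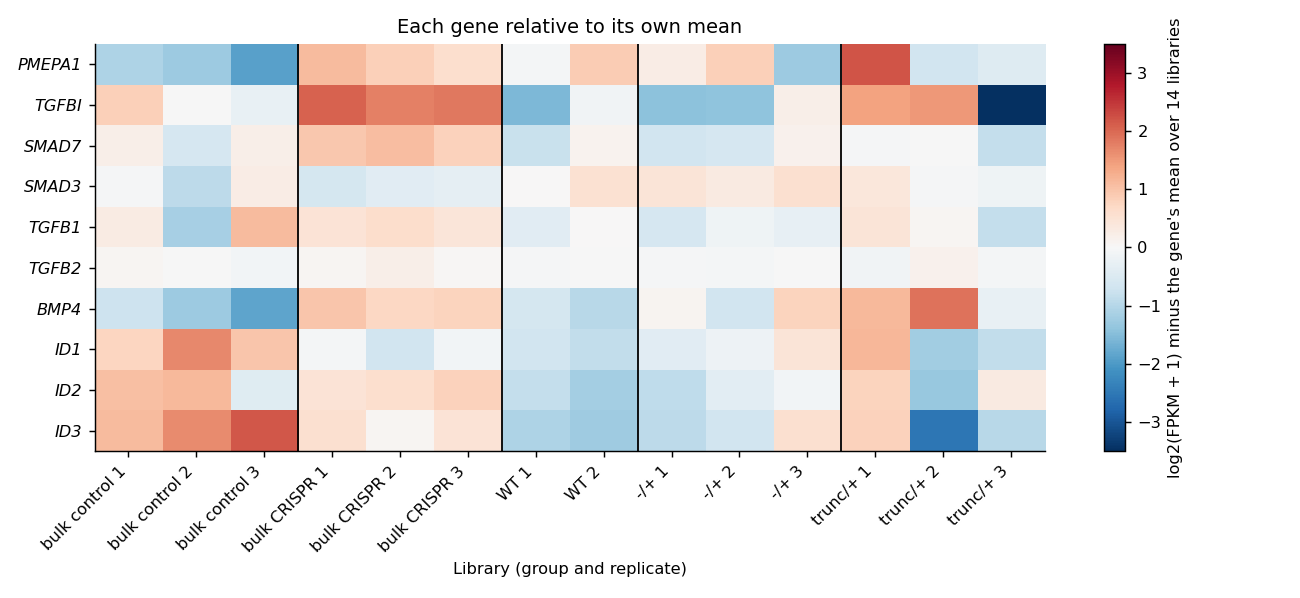
Log2(FPKM + 1) of each gene minus its own mean over the 14 libraries (colour) by library (x axis) and gene (y axis), with lines between groups. The bulk CRISPR libraries form 1 block, with TGFBI well above its mean, while trunc/+ 1, trunc/+ 2 and trunc/+ 3 differ from each other, most of all in TGFBI, at 286, 305 and 2.77 FPKM.

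The control groups did not start from the same levels in PMEPA1 and the ID genes. PMEPA1 averaged 15.3 FPKM in the bulk controls and 58.7 in the WT clones, without overlap. ID1, ID2 and ID3 averaged 3.93-fold, 4.87-fold and 7.53-fold higher in the bulk controls than in the WT clones, again without overlap. TGFBI, SMAD7, SMAD3, TGFB1, TGFB2 and BMP4 overlapped between these control groups. The share of all genes apart between them was not computed, so nothing is read from these separations. The bulk CRISPR level of PMEPA1, 62.7 to 89.9 FPKM, overlapped that of the WT clones. The WT clones had been through single-cell cloning and the bulk controls had not, and the difference was not tested.

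Ordering the 5 groups by mean gave 40 neighbouring pairs over the 10 genes, of which 36 overlapped. The same share over all genes was not computed, so nothing is read from this count. The 4 pairs apart were bulk CRISPR above trunc/+ for TGFBI, bulk CRISPR above bulk control for SMAD7, bulk CRISPR above WT for ID1 and bulk control above bulk CRISPR for ID3. The ID1 pair was barely apart, at 70.3 FPKM in bulk CRISPR 2 against 69.4 in WT 1. In TPM it overlapped, with these libraries at 147 and 152. The highest group was bulk CRISPR for TGFBI, SMAD7, TGFB1 and TGFB2, bulk control for ID1, ID2 and ID3, trunc/+ for PMEPA1 and BMP4 and -/+ for SMAD3.

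Within the family, ID1 and ID3 followed each other most closely in levels, with a Pearson r of log2(FPKM + 1) of 0.884 over the 14 libraries. They also did so in deviations from the genotype mean over the 8 clones, at 0.939. For deviations from group means over all 14 libraries they had 0.871, while SMAD3 and TGFB1 had 0.887. ID2 and ID3 had 0.919 for deviations over the clones and 0.566 over all 14 libraries. TGFBI went with TGFB1 (0.898), BMP4 (0.826) and SMAD7 (0.809) within genotypes of the clones, while PMEPA1 and TGFBI had 0.243. Over all 14 libraries these deviations gave 0.458, 0.808, 0.702 and 0.263. The points share libraries, so these values are descriptions only. Among 13049 other genes, those most like PMEPA1 over the 14 libraries were ACOT7 (r = 0.922), ETHE1 (0.920) and KRT6B (0.909). Those most like SMAD7 were TLN2 (0.982), ELOVL1 (0.939) and ZNF329 (0.937). ID1 was most like ID3, followed by HOTAIRM1 (0.867) and IER5L (0.846).

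A further readout came from repeat copies inside the members' introns, outside all annotated exons and on the gene's strand, as estimated fragments per 1000000 aligned fragments (CPM). The introns of other genes were not counted, so no share over all genes stands beside these values. The paper reports higher repeat RNA of every class but SINEs in bulk CRISPR, and its part in these values was not tested. PMEPA1 had 1.20, 0.0540 and 0.640 CPM in the bulk controls, against 3.52, 4.10 and 4.49 in bulk CRISPR, without overlap. The 3 controls held 32, 1 and 10 fragments and the edited libraries 99, 128 and 144. The means were 0.631 ± 0.573 and 4.04 ± 0.489. In the clones the signal was at 2.02 and 6.39 in the WT clones, at 3.34, 4.05 and 1.17 in the -/+ clones and at 6.24, 4.16 and 4.23 in the trunc/+ clones. Its level followed the FPKM of PMEPA1 with an r of 0.817 over the 14 libraries on log2 scales.

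TGFBI had 1.12, 1.13 and 0.897 CPM of intronic signal in the bulk controls, against 4.24, 2.60 and 1.498 in bulk CRISPR, also without overlap. Its r with the FPKM was 0.809. Trunc/+ 3, lowest in FPKM, was listed lowest here at 0.0711, on 2 estimated fragments of which 0 were unique. Clone -/+ 2, at 0.107, also held 2 fragments, so the lowest levels cannot be ordered. SMAD7 introns held 71 fragments over all libraries, too few to compare. For SMAD3 the intronic signal was 4.29 to 5.47 in the controls and 3.46 to 3.87 in bulk CRISPR, without overlap, although the FPKM overlapped, and its r with the FPKM was -0.113. Trunc/+ 2 stood apart with 11.1 CPM of SMAD3 intronic signal against 2.78 to 5.51 in the other libraries. TGFB1 had 1.46 to 4.48 in the controls and 0.624 to 1.39 in bulk CRISPR, with an r of -0.145. BMP4, ID1, ID2 and ID3 had no such fragments. No repeat copy was listed inside their introns in any library, so the readout does not cover them. Unspliced RNA of the host gene and RNA started within a repeat cannot be told apart in this readout.

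**Figure D4:**
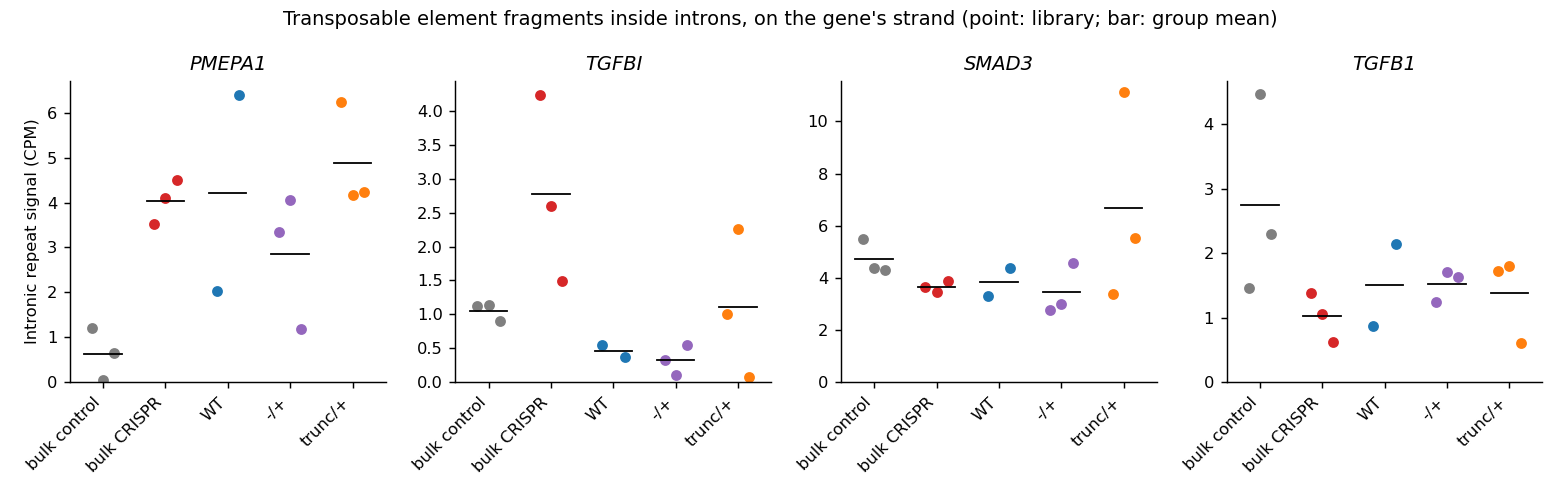
Repeat fragments inside introns on the gene's strand, in CPM (y axis, linear from 0), by group (x axis) for PMEPA1, TGFBI, SMAD3 and TGFB1; points are libraries and bars are group means. Bulk CRISPR lies above bulk control for PMEPA1 and TGFBI and below it for SMAD3 and TGFB1.

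The wider pathway was examined in 86 further genes in 7 classes, none of them a member. In bulk CRISPR over bulk control 57 passed the filter, and limma called 0 of them at an adjusted p under 0.05 over 12114 genes. With p under 0.05 before adjustment, 21 lay higher and 2 lower, where 1690 lay higher and 839 lower among all 12114. Leaving out bulk control 1 gave 15 calls, of which 14 were higher, and over all 11904 genes then tested the calls rose from 23 higher and 19 lower to 982 and 345. Leaving out any other bulk library gave 0 pathway calls. Of the 57, 25 were higher and 2 lower in all CRISPR libraries than in all controls, where 21.8% of all genes tested were higher and 10.4% lower in that way. Of all 86, including those under the filter, 28 were higher and 3 lower, and 63 had a fold change above 0. Among the 12114 genes tested, which leave out genes under the filter, 7842 had a fold change above 0. The median log2 fold change of the pathway genes was 0.12 over all 86 and 0.42 over the 57 that passed the filter, with 0.18 for all genes tested.

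By class, of the genes that passed the filter, non-overlapping higher genes were 4 of 5 ligands, 3 of 8 receptors, 0 of 4 SMADs, 5 of 14 inhibitors, 5 of 9 latency and activation genes, 7 of 14 TGF-beta targets and 1 of 3 BMP targets, beside the 21.8% of all genes tested. The non-overlapping lower genes among them were all inhibitors, 2 of 14, beside 10.4% of all genes tested. The most abundant genes of each class did not pass the test. Among ligands, INHBA, an activin subunit, had means of 32.8 and 71.1 FPKM (adjusted p = 0.123, limma) and BMP2 6.55 and 14.9 (0.118). Among receptors, TGFBR2 had 28.8 and 29.7 and ENG, a co-receptor, 28.7 and 29.5. SMAD5 had 6.82 and 8.88, and SMAD4, the SMAD shared by both branches, 8.46 and 7.78.

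FST, the secreted activin antagonist follistatin, had means of 95.6 FPKM in the controls and 28.1 in bulk CRISPR without overlap (adjusted p = 0.0695, limma), and FSTL3, its relative, 75.2 and 53.1. THBS1, which activates latent TGF-beta, had 52.0 and 136 (0.0941), and LTBP3, a latency-binding protein, 73.2 and 58.0. Of the TGF-beta targets, CDKN1A, the cell-cycle inhibitor p21, had 221 and 466 (0.176) and TPM1, an actin-binding tropomyosin, 86.1 and 129 (0.190). Of the BMP targets, the homeobox genes MSX1 and MSX2 had 39.7 and 29.3 and 3.85 and 4.61, with adjusted p of 0.295 and 0.601 (limma).

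**Figure D5:**
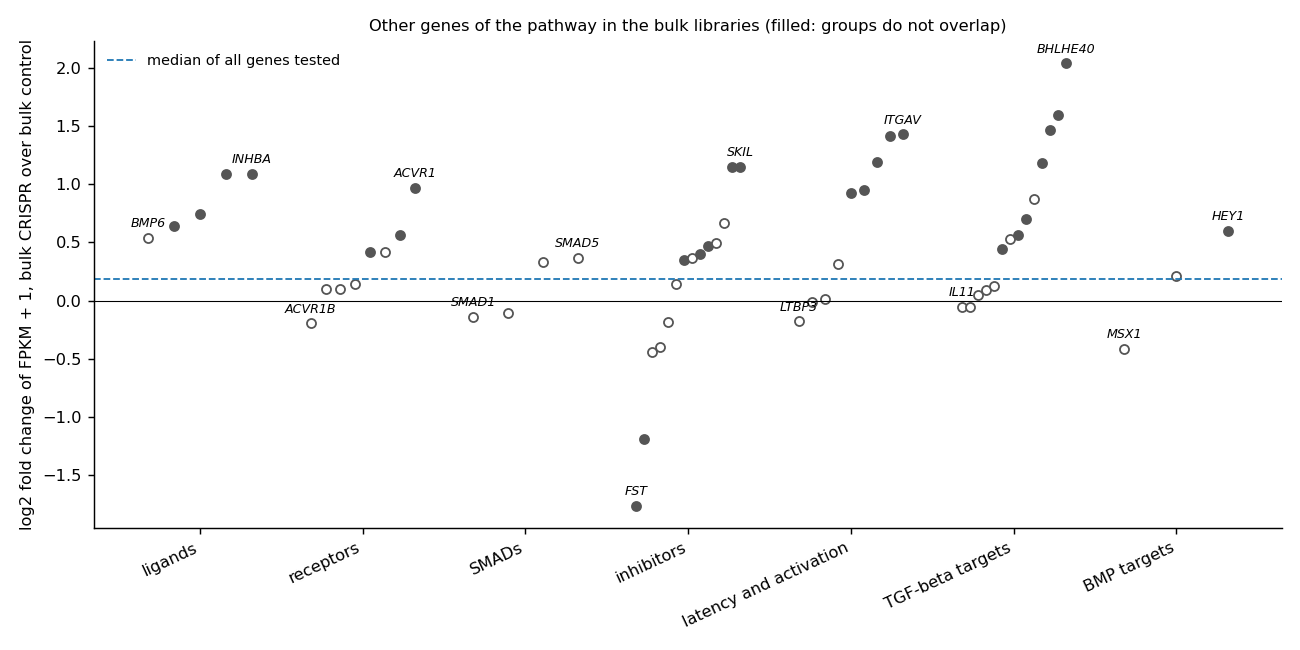
Log2 fold change of FPKM + 1 in bulk CRISPR over bulk control (y axis) of the 57 other pathway genes that passed the filter, by class (x axis), with the lowest and highest gene of each class named; filled points are genes whose groups did not overlap and the dashed line is the median of all genes tested, 0.18. FST lies lowest, at -1.76, and none of these genes passed the threshold.

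Among the clones, limma called 0 of the 62 pathway genes that passed the filter in each of the 3 comparisons. With p under 0.05 before adjustment, 9 lay higher and 1 lower in trunc/+ over WT, 1 and 1 in -/+ over WT and 3 and 0 in trunc/+ over -/+. Over all 12904 genes tested the same threshold gave 424 higher and 555 lower in trunc/+ over WT, 92 and 143 in -/+ over WT and 402 and 408 in trunc/+ over -/+. FST was at 155 and 6.50 in the WT clones, at 220.5, 401 and 88.8 in the -/+ clones and at 32.9, 10.7 and 614 in the trunc/+ clones. As with TGFBI, clones of 1 genotype spanned most of the range. Of the 62 pathway genes, 14 were higher and 3 lower in all trunc/+ clones than in both WT clones, beside 10.6% and 15.4% of all genes tested. TGFBR2 was higher in this way (26.9, 26.8 and 14.1 against 7.87 and 12.3), and LTBP3 averaged 89.5 against 44.9 without overlap, with adjusted p of 0.652 and 0.559 (limma). MSX2 was also higher without overlap, at means of 2.73 against 1.15, and SMAD5 was lower, at 11.6 against 14.1, with adjusted p of 0.658 and 0.756 (limma).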

How the data were processed

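RNA-seq of 14 A375 libraries was analysed from the processed files. Per the study's methods and labels, the authors trimmed reads (cutadapt 4.6 in the submitters' processing notes), mapped them to hg38 and ran SQuIRE; for its version, no source used here gives one. The deposited gene files hold FPKM and TPM, which carry no read depth, so the study's count test could not be run. The deposited repeat files hold unique counts and estimated counts of fragments per repeat copy, with multi-mapping reads shared out by the authors, and the aligned fragments of each library (15615675 to 33018360), used as depth.

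FPKM were summed per gene symbol and tested with limma 3.58.1 (R 4.3.3, trend, two-sided) on log2(FPKM + 1), keeping genes that reached an FPKM of 1 in 3 or more of the 6 bulk libraries, or in 2 or more of the 8 clones, which were fitted together, and Benjamini-Hochberg adjustment over all genes at 0.05. The script was tested on simulated data. The members and lists were chosen with earlier results of these data known. Named genes were the members, pathway genes past the threshold, the 2 most abundant of each pathway class, and the 3 genes most correlated with PMEPA1, SMAD7 and ID1. A gene of the pathway list entered the fit and is not reported here. NKILA was named later, for its overlap with a promoter. Alternatives were another pseudocount, no or a stricter filter, quantile scaling, TPM, 1 fit of all libraries, a replicate block and leaving out each library. Same-numbered bulk libraries had deviations from group means correlated at -0.169, -0.216 and 0.176, so the numbers were not taken as pairs. No 2 libraries of a group shared any of 9661 gene values (0 equal).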

Additional observations from a re-analysis of the deposited data

How the results depend on the processing

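In bulk CRISPR over bulk control, the count of pathway genes called was 0, and 0 with a pseudocount of 0.1, with no filter, with a minimum FPKM of 5 and with TPM. It was 1 with quantile scaling, 3 with 1 fit of all 14 libraries and 5 with a replicate block, where the numbers did not pair the libraries. Leaving out 1 library gave 0 to 15, the 15 without bulk control 1. Calls over all genes moved too, from 23 higher and 19 lower to 25 and 48 with quantile scaling, 165 and 151 with 1 fit of all 14 libraries, 123 and 97 with the block and 982 and 345 without bulk control 1. The cause was not tested. The median log2 fold change of the 10 members was 0.27, and 0.51 with a pseudocount of 0.1; leaving out 1 library gave 0.21 to 0.51, the highest without bulk control 3. In -/+ over WT that median was 0.08, 0.29 with a replicate block, and -0.066 to 0.43 on leaving out 1 clone, the highest without WT replicate 2. In trunc/+ over WT leaving out 1 clone gave -0.22 to 0.41, and in trunc/+ over -/+ it gave -0.28 to 0.27, so the sign of these medians depends on single clones. The clone comparisons called 0 pathway genes under every alternative run. FPKM hold no depth, so precision at low levels is unknown.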
